A study of Mus musculus with 6 samples.

Results

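The T cell receptor signalling genes described here are 41 genes of the 41388 in the deposited table, named by a list rather than by their measured values. The list holds the signalling chains of the receptor and its coreceptor, the kinases and adaptors next to the receptor, the brakes on the pathway, and genes of the early transcriptional response. All 41 were found in the table, and all 41 had a mean normalized count of at least 10, the minimum for testing. In Irf1-/- Th9 cells kept with IFN-γ, 8 of them (19.5%) were lower and 4 (9.76%) were higher than in WT cells, against 12.4% and 11.4% of all genes tested, and 29 did not pass the test. Sh2d1a, which encodes the adaptor SAP, had the largest change of any member, with 59.0% of the WT level in Irf1-/- cells.

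As background, the αβ receptor of a T cell has no enzyme of its own. Its CD3 and ζ chains carry tyrosine motifs that the kinases Lck and Fyn phosphorylate, Zap70 docks there, and Zap70 then phosphorylates the scaffolds Lat and Lcp2 (SLP-76). From this scaffold Plcg1 opens a calcium arm that ends at NFAT factors and a diacylglycerol arm that ends at Ras and NF-κB, while phosphatases, ubiquitin ligases and diacylglycerol kinases hold the pathway back. IRF1 is a transcription factor that IFN-γ induces.

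RNA-Seq compared 3 WT with 3 Irf1-/- cultures of CD4+ T cells, taken as naive cells from spleen and lymph nodes of C57BL/6 mice 8 to 12 weeks old and harvested after 2 days. All cultures received the same agents: plate-bound anti-CD3 and anti-CD28, human IL-2, IL-4, TGF-β, an antibody to mouse IFN-γ, and rat IFN-γ at 5 ng per ml. Every library therefore came from cells whose receptor was being triggered through CD3, and no resting cells and no cells without IFN-γ were compared here. The knockout is germline, so its cells also lacked the intact gene before culture, and WT and Irf1-/- mice came from separate sources.

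Between 6381576 and 13348230 reads fell on genes in the WT libraries and between 5639788 and 12423511 in the Irf1-/- libraries, with replicate 3 the largest in both genotypes. Values are normalized counts, in which the reads of each library had been scaled by its size factor, and the lowest number of reads for any member in any library was 39, for Tespa1. Irf1 itself was 2845 ± 163 (SD, n = 3) in WT and 1662 ± 163 in Irf1-/- cells, so that reads on the targeted gene remained. WT replicates 1 and 2 held Y-linked transcripts, at summed normalized counts of 2301 and 2306, against 0 to 11.1 in the other 4 libraries. Those 4 libraries held Xist at 16974 to 19404, against 2.50 and 6.01 in WT replicates 1 and 2. Genotype and this difference are therefore partly confounded, although the paper describes its mice as matched for sex and age. Values among the 4 libraries with Xist come from 1 WT and 3 Irf1-/- libraries, so the spread there is that of the Irf1-/- libraries, and the single WT library is assumed to vary alike. They are given for the called members and for others that they moved. The summed level of 6 T cell markers was 7006 to 8302 in WT and 7498 to 8761 in Irf1-/- libraries. Without Thy1, which was higher in Irf1-/- cells, the other 5 (Cd3e, Trac, Trbc2, Cd28 and Cd2) summed to 5826 to 6202 in WT and 4861 to 5370.1 in Irf1-/- libraries, lower without overlap, and the part of this in the results was not tested. The helper T cell marker Cd4 was 3899.9 to 4029.7 and 3554 to 3839. Of other cell types, 2 CD8 T cell markers summed to 32.4 to 41.2 in WT and 20.3 to 30.7 in Irf1-/-, 5 B cell markers to 18.7 to 26.4 and 21.7 to 37.4 with Pax5 at 0, and 4 NK cell markers to 0 to 2.46 and 2.77 to 8.36 with Ncr1 and Klrb1c at 0. The 8 myeloid markers summed to 54.9 to 182 in WT and 42.8 to 1042 in Irf1-/-, the highest value being that of Irf1-/- replicate 2.

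The differences of the 41 members were small. The test was limma on log2 values of the normalized count with 1 added, with Benjamini-Hochberg adjustment over all 11379 genes tested and a call at an adjusted p below 0.05. Of the members, 8 (19.5%) were called lower, against 12.4% of all genes tested. In the other direction 4 (9.76%) were called higher, against 11.4% of all genes tested, and in either direction the shares were 29.3% of the members and 23.7% of all genes. The log2 fold change (Irf1-/- minus WT, as everywhere below) had a median of -0.10 over the members and -0.0037 over all genes, and 26 of the 41 members lay below 0. The median size of the difference was 0.16 for members and 0.17 for all genes. Sh2d1a was the only called member beyond 0.5 on the log2 scale, and 0 members passed 1. WT and Irf1-/- values were without overlap for 20 members, 11 lower and 9 higher, against 40.5% of all genes tested. These shares are descriptions of a list chosen with results of these data known, and no test of the list was made. In bulk RNA, fewer cells of a type and less RNA per cell cannot be told apart.

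**Figure D1:**
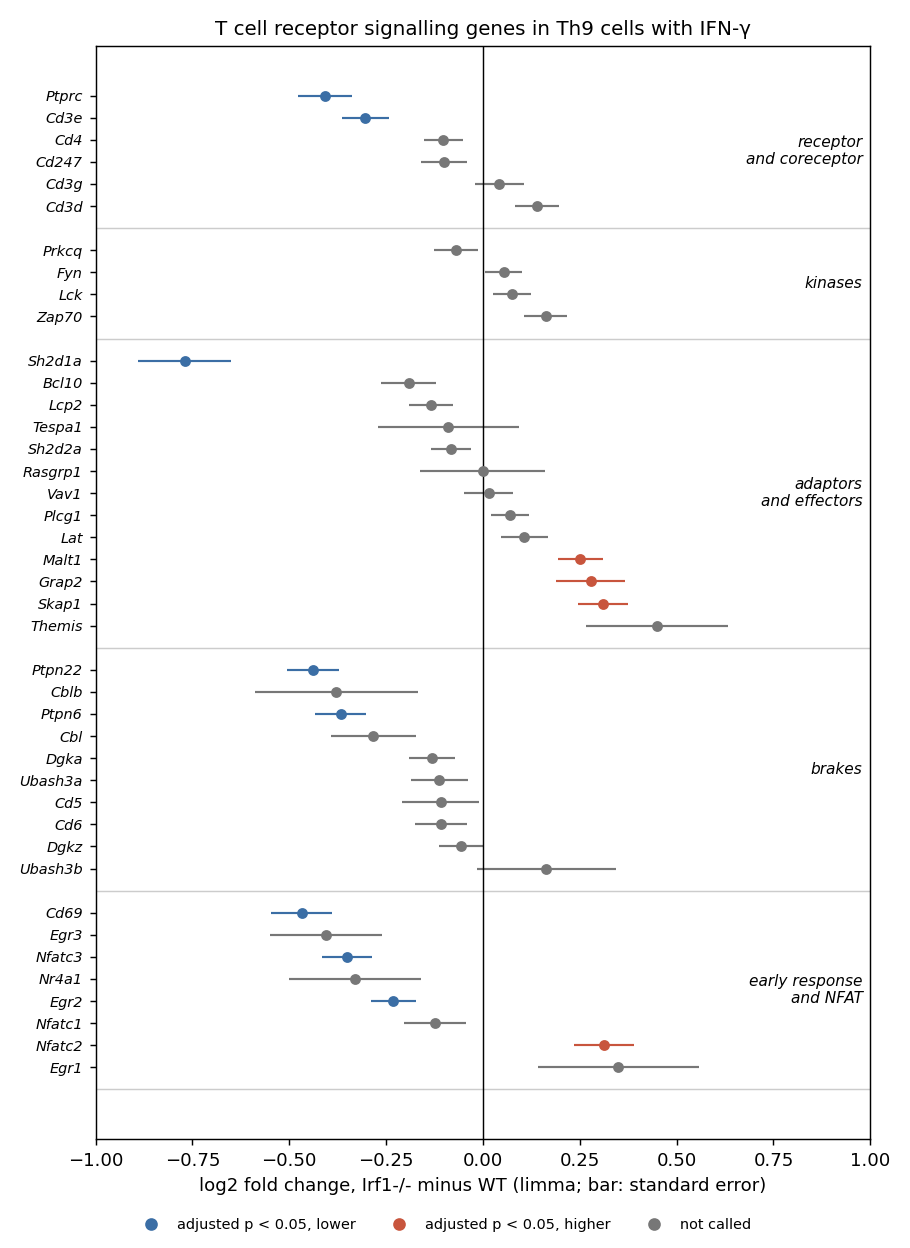
Log2 fold change (Irf1-/- minus WT) of the 41 members by role, with the standard error from limma as the bar; colour marks the calls at an adjusted p below 0.05. Calls lie on both sides of 0 among adaptors and early response genes, and the 10 brakes lie below 0 except Ubash3b, with Dgkz at 0.0034 after quantile normalization and Cd5 and Cd6 at 0.17 and 0.05 among the libraries with Xist.

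The promoters of the members were read for motifs of the factors that IFN-γ and the receptor act through. RefSeq promoter windows of GRCm38.p6, from 250 bases before to 50 bases after each start, were given for 30 of the 41 members, and those of Cd4, Skap1, Tespa1, Sh2d1a, Sh2d2a, Malt1, Cd6, Cd69, Egr1, Egr3 and Nfatc1 were not used here. On either strand, 0 of the 30 members held GAAANNGAAA, a core of the interferon-stimulated response element, the kind of site that IRF family factors bind. Of all 27025 genes with a window, 3.99% held it. The paper defines this element by the shorter AANNGAAA, which was not searched here. The gamma-activated sequence (GAS) TTCNNNGAA stood in windows of 4 members (13.3%), namely Cd3d, Ptpn22, Rasgrp1 and Ubash3b, against 9.55% of all genes. The CArG box, the serum response factor site of early response genes, stood in windows of 1 member, Egr2, against 1.81% of all genes, and the EGR site GCGTGGGCG in 0 members against 0.707%. The motifs do not overlap each other in these windows. The sequences below show the GAS motifs of Ptpn22, which was called lower, and of Cd3d and Ubash3b, which were not called, and the CArG boxes of Egr2, with the motif in capitals and the strand of the gene. A match is a description of letters, and the absence of a match says only that they do not occur in the window.
Ptpn22, chr3:103860027-103860093, + strand, motif starting 232 bases before the start: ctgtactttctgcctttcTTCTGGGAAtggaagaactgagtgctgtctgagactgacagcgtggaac
Cd3d, chr9:44981549-44981637, + strand, motif starting 197 bases before the start: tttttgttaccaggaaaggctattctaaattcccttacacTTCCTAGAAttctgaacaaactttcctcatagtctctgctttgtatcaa
Ubash3b, chr9:41158146-41158234, - strand, motif starting 132 bases before the start: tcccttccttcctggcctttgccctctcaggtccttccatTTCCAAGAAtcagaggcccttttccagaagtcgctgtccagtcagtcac
Egr2, chr10:67537454-67537543, + strand, motif starting 72 bases before 1 of its starts: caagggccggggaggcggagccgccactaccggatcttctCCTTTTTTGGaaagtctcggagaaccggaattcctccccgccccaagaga
Egr2, chr10:67537757-67537846, + strand, motif starting 72 bases before another start: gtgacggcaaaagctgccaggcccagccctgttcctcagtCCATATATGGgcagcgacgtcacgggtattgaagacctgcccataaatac

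The receptor group comprised the 3 CD3 chains, the ζ chain Cd247, the coreceptor Cd4 and the phosphatase Ptprc. Of these 6 genes, 2 were lower and 0 were higher, against 12.4% and 11.4% of all genes tested, and the median log2 fold change was -0.10. Ptprc (CD45, ENSMUSG00000026395, chromosome 1 from 138062861 to 138175708, - strand) keeps Lck in a form that can be activated. Its normalized count was 11691, 11505 and 12052 in the WT libraries and 8425, 8266 and 9964 in the Irf1-/- libraries. The genotypes did not overlap, although Irf1-/- replicate 3 stood above the other Irf1-/- libraries. The log2 fold change was -0.41 (standard error 0.0699, limma adjusted p = 0.00237), which left 75.6% of the WT mean. Ptprc passed under each of the 18 alternatives that give a test other than libraries with Xist only, where its log2 fold change was -0.44. Its lowest adjusted p, 4.72e-16 in limma, came from replicates 1 and 2 only, where genotype and Xist status cannot be told apart.

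Cd3e (ENSMUSG00000032093, chromosome 9 from 44998740 to 45009627, - strand), the chain that pairs with both other CD3 chains, was 1625, 1666 and 1580.4 in WT and 1241, 1302 and 1409 in Irf1-/- libraries. All WT libraries were above all Irf1-/- libraries, and the log2 fold change was -0.30 (standard error 0.0605, limma adjusted p = 0.00535). Its neighbours in the same cluster of chromosome 9 were not called. Cd3d was 1229.8 ± 40.8 (SD, n = 3) in WT and 1356 ± 50.1 in Irf1-/- cells (log2 fold change 0.14, limma adjusted p = 0.0974), and Cd3g was 1307 ± 34.3 and 1348 ± 102. Within each library, the ratio of Cd3e to Cd3d was 1.37, 1.32 and 1.28 in WT and 0.900, 0.937 and 1.09 in Irf1-/- cells. These ranges did not overlap, and the exact two-sided permutation test over the 3 against 3 libraries gave p = 0.1, the smallest that it can give. Cd3e and Cd3d alone were already apart in opposite directions, so this outcome was fixed beforehand and adds nothing to them. The pair was chosen after the values were seen. Cd247 and Cd4 were not called, at 93.3% and 93.2% of the WT mean. Of the constant regions of the antigen-binding chains, which are no members, Trac fell from 1013 ± 36.1 to 814 ± 51.3 (log2 fold change -0.32, limma adjusted p = 0.00632) and Trbc1 from 404 ± 27.8 to 325 ± 3.05 (-0.31, limma adjusted p = 0.0151). Trbc2 was 846 ± 75.6 and 734 ± 36.1 and was not called (-0.20, limma adjusted p = 0.0779). Among the libraries with Xist the log2 fold changes were -0.33, -0.20 and -0.06, and none of these 3 was called there.

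The 4 kinases were the most even group. Lck, which phosphorylates the CD3 motifs, was 4319 ± 135 (SD, n = 3) in WT and 4549.8 ± 96.7 in Irf1-/- cells. Fyn, the other Src family kinase, was 2051 ± 39.9 and 2128 ± 16.7. Prkcq, the protein kinase C that feeds the NF-κB arm, was 935 ± 35.5 and 891 ± 4.06. Their limma adjusted p ran from 0.296 for Lck to 0.462 for Fyn. Zap70 came nearest to the threshold among the members that missed it, with 1931, 1818 and 1786 in WT and 2067, 2143 and 1984 in Irf1-/- libraries, which did not overlap. Its log2 fold change was 0.16 (standard error 0.0553, limma adjusted p = 0.0559), and over the alternatives its adjusted p ran from 0.00769 to 0.176.

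The 13 adaptors and effectors moved in both directions, with 1 lower and 3 higher, against 12.4% and 11.4% of all genes tested. Their median log2 fold change was 0.01. Sh2d1a (ENSMUSG00000005696, X chromosome from 42502453 to 42529330, + strand) encodes SAP, which couples SLAM family receptors to Fyn. It was 790.0, 772 and 938 in WT and 429.8, 451 and 594 in Irf1-/- libraries. The lowest WT value was well above the highest Irf1-/- value, and replicate 3 was the highest of its genotype in both. The log2 fold change was -0.77 (standard error 0.119, limma adjusted p = 0.00135). As an X-linked gene it was also compared among the 4 libraries with Xist, where the difference was -0.95. In a fit that held the Y-linked level as covariate it was -0.94. On the WT side both values rest wholly or mostly on WT replicate 3. Sh2d1a passed under all 18 alternatives with a test other than libraries with Xist only, with adjusted p from 1.06e-14 to 0.0250. The lowest came from replicates 1 and 2 only, where genotype and Xist status cannot be told apart. The gene overlaps Tenm1 on the opposite strand, and whether the counting used strand is not given in the sources used here.

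Skap1, an adaptor of integrin activation (ENSMUSG00000057058, chromosome 11 from 96464593 to 96759130, + strand), was 485, 463 and 492 in WT and 602, 609 and 575 in Irf1-/- libraries. The groups were well apart, with a log2 fold change of 0.31 (standard error 0.0649, limma adjusted p = 0.00679). Malt1, the protease of the complex that carries the signal to NF-κB (ENSMUSG00000032688, chromosome 18 from 65430938 to 65479067, + strand), was 2265, 2214 and 2041 in WT and 2708, 2505 and 2545 in Irf1-/- libraries. Here too the values did not overlap, and the log2 fold change was 0.25 (standard error 0.0581, limma adjusted p = 0.0110). The call did not hold without Irf1-/- replicate 1 (0.22, adjusted p = 0.0545), and over the alternatives its adjusted p ran from 0.000313 to 0.0634. Its partner Bcl10 lay the other way without passing, at 477 ± 6.41 (SD, n = 3) in WT and 418 ± 24.2 in Irf1-/- cells (log2 fold change -0.19, limma adjusted p = 0.0755). The ratio of Malt1 to Bcl10 was 4.81, 4.58 and 4.27 in WT and 6.94, 5.75 and 5.94 in Irf1-/- libraries, again without overlap and again chosen after the values were seen (exact two-sided permutation p = 0.1, the smallest possible). As Malt1 and Bcl10 alone were already apart in opposite directions, this outcome too was fixed beforehand.

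Grap2 (Gads), which joins Lat to Lcp2 (ENSMUSG00000042351, chromosome 15 from 80572594 to 80652854, + strand), was the least secure call. It was 718, 677 and 865 in WT and 861, 924 and 944 in Irf1-/- libraries, so that WT replicate 3 lay above Irf1-/- replicate 1. The log2 fold change of 0.28 (standard error 0.0888, limma adjusted p = 0.0440) held under 10 of 19 alternatives, with adjusted p from 1.62e-05 to 0.728. Leaving out any library other than WT replicate 3 ended the call. Without WT replicate 1 the change was 0.25 and without WT replicate 2 it was 0.21. Without Irf1-/- replicates 1, 2 and 3 in turn it was 0.32, 0.27 and 0.25. Among the libraries with Xist it was 0.07.

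The central scaffold genes did not pass. Lat was 108% and Lcp2 91.3% of the WT mean, Plcg1 105%, Vav1 101% and Sh2d2a, the Lck-binding adaptor TSAd, 94.4%, with limma adjusted p from 0.117 for Lcp2 to 0.898 for Vav1. Rasgrp1, which activates Ras on diacylglycerol, had nearly equal means of 1502 ± 293 (SD, n = 3) and 1511 ± 373 with a wide spread, and a log2 fold change of -0.30 among the libraries with Xist. Themis, an adaptor known from thymocyte selection, was 529, 537 and 760.4 in WT and 682, 721 and 1122 in Irf1-/- libraries. Its log2 fold change of 0.45 was larger than that of any called member that rose, but the groups overlapped and limma gave an adjusted p of 0.102. Without Irf1-/- replicate 3 it was 0.22, and among the libraries with Xist 0.11. In replicates 1 and 2 only it was 0.39, and in replicate 3 only 0.56. Themis was called higher under 3 alternatives, with the lowest limma adjusted p, 7.35e-06, under a replicate block. Tespa1, a gene of the same process, was the lowest member, at 67.3 ± 8.34 and 63.7 ± 13.1.

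**Figure D2:**
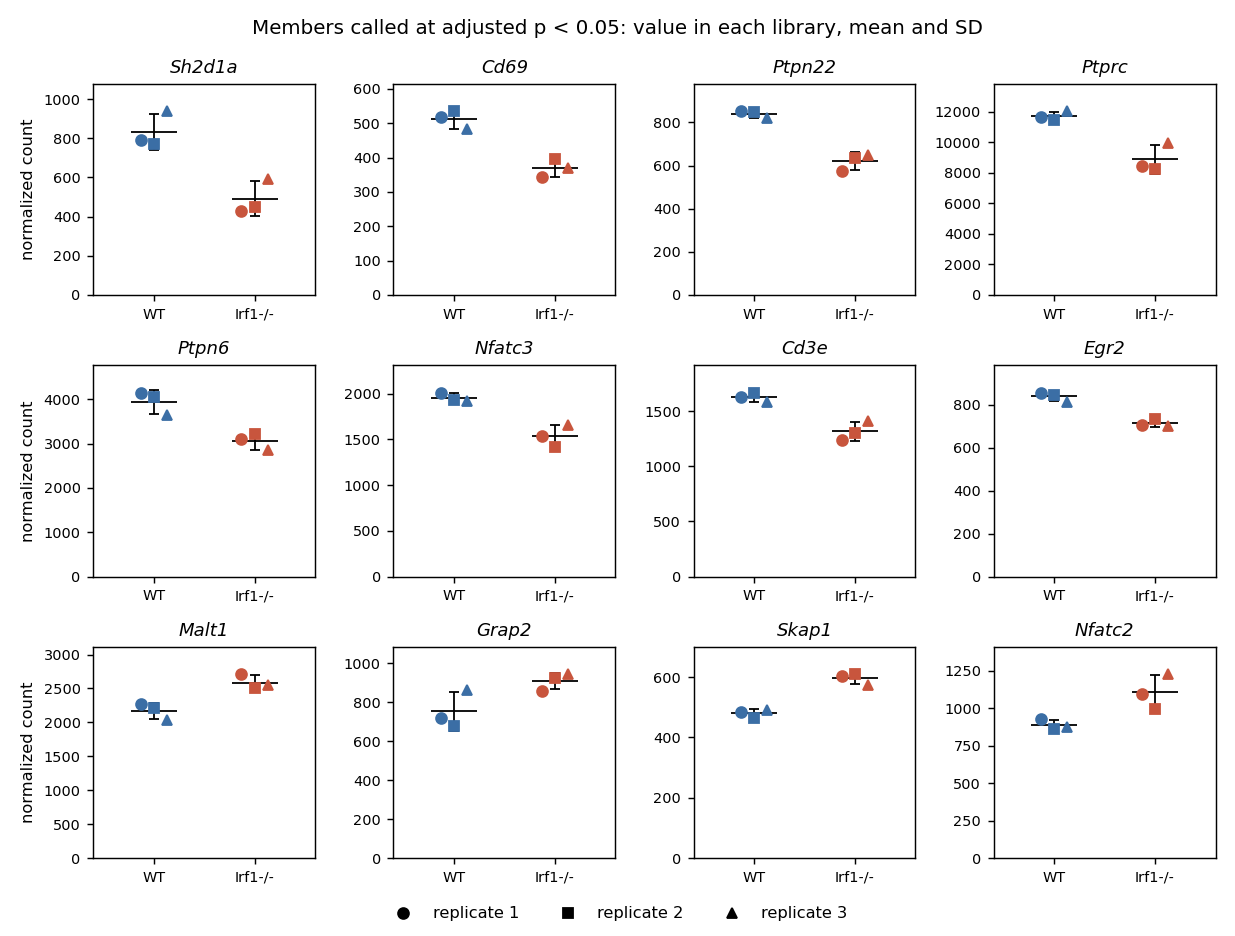
Normalized count of the 12 called members in each library (points, shaped by replicate number), with the mean and SD (n = 3) of each genotype as bars; axes start at 0. The genotypes do not overlap for 11 of them, and Grap2 is the exception.

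Of the 10 brakes, 2 were lower and 0 were higher, against 12.4% and 11.4% of all genes tested. A log2 fold change below 0 was found in 9 brakes, and the median was -0.12. Of these Dgkz came to 0.0034 after quantile normalization, and Cd5 and Cd6 came to 0.17 and 0.05 among the libraries with Xist. Both called genes encode tyrosine phosphatases. Ptpn22, which dephosphorylates Lck and Zap70 (ENSMUSG00000027843, chromosome 3 from 103859795 to 103912247, + strand, shown above with its GAS motif), was 852, 846 and 819 in WT and 573, 637 and 651 in Irf1-/- libraries. The log2 fold change was -0.44 (standard error 0.0670, limma adjusted p = 0.00126), without overlap. Ptpn6 (SHP-1, ENSMUSG00000004266, chromosome 6 from 124720707 to 124738714, - strand) was 4151, 4050.2 and 3642 in WT and 3098, 3229.9 and 2849.6 in Irf1-/- libraries. These too were apart, and the log2 fold change was -0.37 (standard error 0.0660, limma adjusted p = 0.00306). Ptprc, described with the receptor, is also a tyrosine phosphatase, but one with an activating role at Lck.

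The ubiquitin ligases Cblb and Cbl lay below WT with a wide spread. Cblb, which limits T cells that lack costimulation, was 1224, 1417 and 2152 in WT and 1054, 986 and 1635 in Irf1-/- libraries. Replicate 3 was far above the others in both genotypes, and the log2 fold change of -0.38 had a standard error of 0.211 (limma adjusted p = 0.225). Within replicates 1 and 2 it was -0.37, within the replicate 3 libraries -0.40, and among the libraries with Xist -0.85, where it was called lower. Over the alternatives its adjusted p ran from 1.66e-06 to 0.570. Cbl was 947 ± 113 (SD, n = 3) in WT and 780.3 ± 116 in Irf1-/- cells (log2 fold change -0.28, limma adjusted p = 0.0891, and -0.47 among the libraries with Xist).

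The surface inhibitors Cd5 and Cd6, neighbours on chromosome 19, each stood at about the same level in the 3 Irf1-/- libraries, while WT replicate 3 was below the other WT libraries. Cd5 was 2481, 2541 and 1871 in WT and 2113, 2170.4 and 2048 in Irf1-/- libraries, and Cd6 was 3298, 3135 and 2739.7 in WT and 2827, 2814 and 2841 in Irf1-/- libraries. Neither was called (limma adjusted p = 0.469 and 0.273), and both were called lower without WT replicate 3, with log2 fold changes of -0.25 and -0.19. Among the libraries with Xist the differences were 0.17 and 0.05. The diacylglycerol kinases Dgka and Dgkz, which remove the lipid that Rasgrp1 and Prkcq need, were 91.3% and 96.3% of the WT mean without passing. Ubash3a was 92.6% and its relative Ubash3b, a phosphatase of Zap70, 112%, with a log2 fold change of 0.16 that was 0.56 among the libraries with Xist.

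The 8 genes of the early response and the NFAT family had the largest median size of log2 fold change of the 5 roles, at 0.34. Of them 3 (37.5%) were lower and 1 (12.5%) was higher, against 12.4% and 11.4% of all genes tested, and the median log2 fold change was -0.28. Egr1, Nr4a1 and Egr3, which were not called, had standard errors of 0.208, 0.170 and 0.145, against a median of 0.0997 over all genes. Cd69, the surface marker that appears soon after triggering (chromosome 6 from 129267325 to 129275436, - strand), was 517, 535 and 482 in WT and 343, 395 and 371 in Irf1-/- libraries. The ranges were apart, and Cd69 had a log2 fold change of -0.47 (standard error 0.0792, limma adjusted p = 0.00222). Egr2, a zinc finger factor that induces several brakes (chromosome 10 from 67535475 to 67542188, + strand, with the CArG boxes shown above), was 856, 848 and 814 in WT and 706, 735 and 704 in Irf1-/- libraries. Although these ranges did not overlap, the log2 fold change was modest, at -0.23 (standard error 0.0584, limma adjusted p = 0.0163). The call did not hold without WT replicate 1, WT replicate 2 or Irf1-/- replicate 1, where the change was -0.22 each time, and over the alternatives the adjusted p ran from 0.00276 to 0.283.

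The other early genes spread more. Egr3, a close relative of Egr2, was 172, 139 and 153 in WT and 106, 104 and 143 in Irf1-/- libraries (log2 fold change -0.40, limma adjusted p = 0.0671). Egr1 was 472, 458 and 632 in WT and 537, 537 and 979.7 in Irf1-/- libraries (0.35, limma adjusted p = 0.256). Nr4a1 (Nur77), an orphan nuclear receptor used as a reporter of receptor signal, was 1284, 1422 and 1657 in WT and 934, 1017 and 1607 in Irf1-/- libraries (-0.33, limma adjusted p = 0.191). In each of the 3 genes, Irf1-/- replicate 3 was the highest Irf1-/- library. Without it Egr3 was at -0.55 and Nr4a1 at -0.57, and both were then called lower, while Egr1 came to 0.0604. Among the libraries with Xist Egr3 was at -0.39, Nr4a1 at -0.52 and Egr1 at 0.0543.

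The NFAT genes differed among themselves. Nfatc3 (chromosome 8 from 106058840 to 106130537, + strand) was 2010.5, 1936 and 1919.7 in WT and 1535, 1415 and 1659 in Irf1-/- libraries, with a log2 fold change of -0.35 (standard error 0.0642, limma adjusted p = 0.00341). Nfatc2 (chromosome 2 from 168476410 to 168601657, - strand) was 927, 861 and 870.4 in WT and 1091, 996 and 1224 in Irf1-/- libraries, with a log2 fold change of 0.31 (standard error 0.0773, limma adjusted p = 0.0150). Neither pair of ranges overlapped, and the genes lay on opposite sides of WT. The Nfatc2 call did not hold without WT replicate 2 (0.29, adjusted p = 0.0651), and over the alternatives its adjusted p ran from 0.000387 to 0.120. In each library the ratio of Nfatc2 to Nfatc3 was 0.461, 0.445 and 0.453 in WT and 0.711, 0.704 and 0.738 in Irf1-/- cells. This ratio, chosen after the values were seen, was 0.66 higher on the log2 scale in Irf1-/- cells, with little spread inside a genotype (exact two-sided permutation p = 0.1, the smallest possible). Both genes alone were already apart in opposite directions, so this p was fixed beforehand and adds nothing to them. Nfatc1, whose short form is induced by NFAT itself, was 1125 ± 41.3 (SD, n = 3) and 1037 ± 122 (log2 fold change -0.12, limma adjusted p = 0.305).

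The spread inside a genotype was also read by replicate number. Replicate 3 was the highest library of its genotype in both WT and Irf1-/- cells for 9 members, against 23.3% of all genes tested, and the lowest in both for 10 members, against 18% of all genes tested. The first share is near that of all genes, so these counts describe the libraries and are no result about the members. The 9 members were Ptprc, Grap2, Themis, Sh2d1a, Rasgrp1, Cblb, Cbl, Nr4a1 and Egr1. The log2 distance of replicate 3 from the mean of replicates 1 and 2 was largest in Cblb in WT, at 0.71, with 0.68 in Irf1-/- cells. For Themis it was 0.51 and 0.68, for Rasgrp1 0.45 and 0.58, and for Egr1 0.44 and 0.87. Ubash3b lay the other way, at -0.59 and -0.54. For these genes the distance between replicates was larger than that between genotypes. Both replicate 3 libraries also had the most reads, and WT replicate 3 was the WT library with Xist, so that depth, Xist status and replicate number cannot be told apart within WT. In replicates 1 and 2 both WT libraries held Y-linked transcripts and both Irf1-/- libraries Xist, so that genotype and this difference cannot be told apart. The lowest adjusted p given for Zap70, Malt1, Grap2, Cblb and Egr2 came from replicates 1 and 2 only, as for Ptprc and Sh2d1a.

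**Figure D3:**
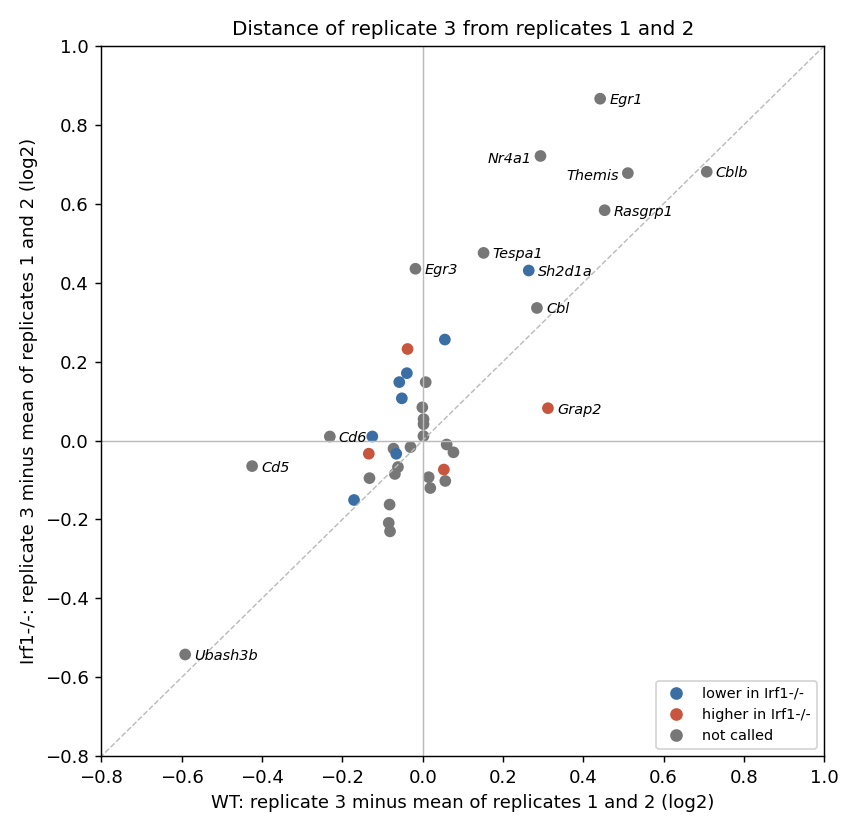
Log2 distance of replicate 3 from the mean of replicates 1 and 2, in WT (x axis) and in Irf1-/- cells (y axis), for the 41 members; the dashed line marks equal distances and colour marks the calls between genotypes. Cblb, Themis, Rasgrp1 and Egr1 lie far up in both genotypes and Ubash3b far down, all of them not called between genotypes.

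The comparison among libraries with Xist set 1 WT library against 3 Irf1-/- libraries, so its spread came from the Irf1-/- libraries alone and the WT library was assumed to vary alike. Of the 12 calls, Ptprc, Sh2d1a and Malt1 passed there, at log2 fold changes of -0.44, -0.95 and 0.34. The other 9 did not pass. Ptpn22 was at -0.40, Cd69 at -0.38, Nfatc3 at -0.32, Cd3e at -0.26, Ptpn6 at -0.25 and Egr2 at -0.19. On the higher side Nfatc2 was at 0.34 and Skap1 at 0.27, while Grap2 fell to 0.07 from 0.28. In a fit of all 6 libraries that held the Y-linked level as covariate, 10 of the 12 calls held and those of Grap2 and Egr2 did not. That level was high in WT replicates 1 and 2 alone, so the genotype difference there also rests mostly on WT replicate 3. The fit is therefore no separate check of the comparison above. Cblb (-0.80), Cbl (-0.47) and Nr4a1 (-0.54) were also called lower in that fit and Zap70 (0.21) and Ubash3b (0.50) higher, so that 10 members were lower and 5 higher, and 2491 of all genes were called. The fewest reads of any called member in any library were 285, for Cd69.

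Levels were compared between genes per kilobase of exon, over all exons annotated for a gene, which understates genes with long alternative exons. In WT cells the highest level was that of Lck, at 1475 normalized counts per kb, followed by Ptpn6 at 1409, Lat at 1339, Cd4 at 983 and Lcp2 at 981. These are a kinase, a phosphatase, the coreceptor and both scaffolds. The receptor chains were at 678 for Cd3d, 399.8 for Cd3g, 398 for Cd3e and 216 for Cd247, and Zap70 was at 617. The lowest levels were those of Themis at 52.1, Ubash3b at 50.5, Egr3 at 35.2 and Tespa1 at 10.7. In Irf1-/- cells Ptpn6 came to 1092, Lat to 1444 and Lck to 1553.

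**Figure D4:**
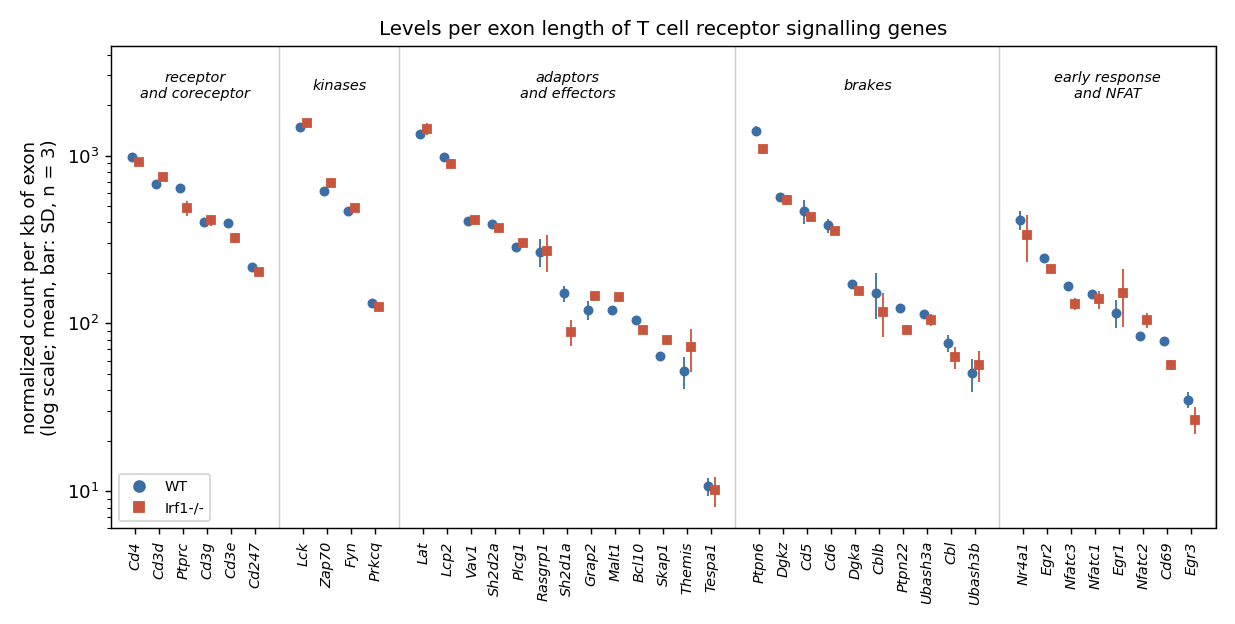
Normalized count per kb of exon on a log scale, mean and SD (n = 3), for the 41 members in WT and Irf1-/- cells, ordered by WT level within each role. Levels span from Lck at 1475 to Tespa1 at 10.7 in WT cells, and the symbols of the genotypes lie close together for most genes.

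Other genes of the pathway were counted from a list of 107 that holds no member and was written from general knowledge. Of the 104 with enough signal to test, 19 (18.3%) were lower and 11 (10.6%) higher, against 12.4% and 11.4% of all genes tested, and the median log2 fold change was -0.04. After quantile normalization the split was 16 lower and 15 higher. Among 21 further brakes that were tested, 6 were lower and 2 higher, among 24 genes of the Ras, MAP kinase and NF-κB arm 3 were lower and 2 higher, and among 20 calcium and NFAT control genes 3 were lower and 4 higher. Of 22 further proximal enzymes and adaptors 2 were lower and 1 higher, of 10 further response genes 3 and 1, and of 7 genes of the antigen receptor and costimulation 2 and 1. Individual changes outside the members were larger than any within them. The lowest was Vav3, a relative of Vav1, at 129, 121 and 107 in WT and 44.2, 48.5 and 53.7 in Irf1-/- libraries (log2 fold change -1.27, limma adjusted p = 0.000222). Vav1 itself was level, as given above. Il2, the growth factor gene that NFAT drives, fell from 213 ± 38.1 (SD, n = 3) to 99.1 ± 39.2 (-1.15, limma adjusted p = 0.00620), with Irf1-/- replicate 3 at 143 against 169.7 in the lowest WT library.

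The relatives of Nr4a1 were called. Nr4a3 was 7683, 7598 and 8351 in WT and 4206, 4259 and 4892 in Irf1-/- libraries (log2 fold change -0.83, limma adjusted p = 2.65e-05), and Nr4a2 fell from 125 ± 28.4 (SD, n = 3) to 68.1 ± 4.67 (-0.85, limma adjusted p = 0.00486). Of the brakes, Sla (SLAP), which lowers receptor levels, fell from 1309 ± 19.6 to 769 ± 188 (-0.79), although it overlaps Tg on the other strand, and the ERK phosphatase Dusp5 fell from 1803 ± 150.0 to 1279 ± 109 (-0.50). On the higher side, the kinase Tec rose from 56.4 ± 25.7 to 199 ± 7.29 (1.89, limma adjusted p = 0.000418) and Ier3 from 33.1 ± 5.88 to 86.2 ± 32.6 (1.30). Atp2b4, a pump that clears calcium from the cell, rose from 487 ± 99.1 to 998 ± 109.5 (1.05), and the surface protein Thy1 from 1533 ± 496 to 2979 ± 382 (194% of the WT mean). The phosphatase Ptprj rose from 156 ± 11.9 to 294 ± 18.0 (0.91) and the adaptor Dok2, a brake, from 271 ± 45.3 to 443 ± 17.1 (0.72). All 12 of these genes had values that did not overlap between genotypes, which their choice by call and size of change makes likely. In the list 41 of the 104 tested genes did not overlap, against 40.5% of all genes tested. Among the libraries with Xist, Il2, Nr4a2, Dusp5 and Ier3 kept their direction without being called, at -0.84, -0.62, -0.36 and 1.05. Thy1 and Tec had their highest WT value in replicate 3, at 2099.8 and 86.1, and among the libraries with Xist their log2 fold changes were 0.50 and 1.198. Those of Atp2b4, Ptprj and Dok2 were 0.73, 0.79 and 0.53 there, and those of Vav3, Nr4a3 and Sla were -1.12, -0.91 and -0.77.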

How the data were processed

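Poly(A) RNA of 3 WT and 3 Irf1-/- Th9 cultures was sequenced as single-end reads. The authors aligned them with STAR 2.4.0b to GRCm38, counted them per Ensembl gene with featureCounts and normalized with DESeq2 1.12.3. The deposited signal is the normalized count, that is, the count divided by a size factor of the library. Of the 101704 values above 0, 100% were whole numbers of reads within 0.01, and 3 reads equalled a normalized count of 1.84 to 4.16. Strand setting and treatment of multi-mapping reads are not given in the sources used here, and 17 members, 6 of them called, overlap another annotated gene. Symbols, coordinates and exons came from GENCODE for GRCm38 by Ensembl identifier, for 40254 of the 41388 genes.

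Genotypes were compared in R 4.3.3 with limma 3.58.1 (eBayes with a mean-variance trend) on log2 of the normalized count plus 1, which understates changes of low genes, for 11379 genes with a mean of at least 10. P-values were adjusted over these by Benjamini-Hochberg, and a call was an adjusted p below 0.05. The paper describes 3 independent biological samples, and the labels do not say that the 3 cultures of a genotype came from separate animals. The p-values therefore measure the spread between these samples. The following were tried in turn: a pseudocount of 0.1 or 10, no minimum or a minimum mean of 50, TMM factors, quantile normalization, no trend, a replicate block, count models of the recovered reads in edgeR 4.0.16 and in DESeq2 1.42.0, each library left out, replicates 1 and 2 or replicate 3 alone, the Y-linked level as covariate, and libraries with Xist only. The fits were tested on simulated data with 200 changed genes. There limma recovered 82% of changes of 0.75 and 93% of changes of 1.5 on the log2 scale, with 5 false calls. Smaller changes were not simulated. Ratios were compared by an exact permutation test over libraries.

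The members, the pathway list, the marker lists and the tests were chosen with earlier results of these data known. All members were described by role, called members by their value in each library, and from the pathway list the 6 called genes with the largest log2 fold change in each direction. The T cell receptor constant regions, the marker sum without Thy1 and the genes of the ratios were added after the values were seen. Promoter windows came from RefSeq and were searched on both strands.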

Additional observations from a re-analysis of the deposited data

How the results depend on the processing

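There were 3 libraries a genotype, 2 of them without Xist in WT, and how well small changes can be called with them was not tested. Of the 12 called members, 8 passed under each of the 18 alternatives with a test other than that of libraries with Xist only. That comparison has 1 WT library, assumed to vary like the Irf1-/- libraries, and Ptprc, Sh2d1a and Malt1 passed in it. The 8 members called lower became 14 with a replicate block, 17 in replicates 1 and 2 only, 3 in libraries with Xist only (Ptprc, Sh2d1a and, not called with all libraries, Cblb) and 7 to 13 with a library left out, the 13 without Irf1-/- replicate 3. The 4 called higher became 1 with no trend, 8, 10 and 1 under the block, replicates 1 and 2 and Xist only, and 2 to 5 with a library left out, the 2 without WT replicate 2 or Irf1-/- replicate 1. In the pathway list the 19 lower became 30 with the block, 34 in replicates 1 and 2 and 5 with Xist only, and the 11 higher became 20, 17 and 5. Over all genes the 2699 calls became 4009 with the block, 3895 in replicates 1 and 2, 1735 with no trend, 784 with Xist only and 1625 to 2802 with a library left out (1625 without WT replicate 2, 1637 without WT replicate 1, 1715 without Irf1-/- replicate 2). The median log2 fold change of the members, -0.10, was -0.0393 after quantile normalization, -0.0769 with the Y-linked covariate, -0.0694 with Xist only, -0.0739 in replicates 1 and 2, -0.0442 in replicate 3 only and -0.0584 to -0.10 with a library left out. Directions turned in 8 members that were not called: with a library left out Cd3g ranged from -0.0188 to 0.0810, Vav1 from -0.0298 to 0.0461, Tespa1 from -0.25 to 0.0179, Rasgrp1 from -0.20 to 0.15 and Ubash3b from -0.0339 to 0.34. Rasgrp1 was 0.0683 after quantile normalization, 0.0112 in edgeR and 0.0140 in DESeq2. With the Y-linked covariate Cd5 was 0.11, Cd6 0.0020 and Dgkz 5.1e-05, with Xist only Cd5 was 0.17 and Cd6 0.0454, and after quantile normalization Dgkz was 0.0034. The cause was not tested. Same-numbered libraries deviated together with correlations of 0.0922, 0.269 and 0.321, not all above 0.1, so they were taken to share only a number, although each library correlated best with its own number.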
